A study of Mus musculus with 6 samples.

Results

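The genes described here are 35 mouse genes of the unfolded protein response and of protein folding in the endoplasmic reticulum (ER), measured by RNA sequencing in cultured lung fibroblasts. They were chosen by symbol, not by a threshold on their values, but with earlier results of these data known. By Ensembl identifier, they cover ER chaperones, disulfide enzymes, ER-associated degradation factors, stress sensors and transcription factors, and targets of ATF4 and CHOP. All 35 were found among the 45706 genes of the deposited table (Ero1a under its older symbol Ero1l), and 34 were expressed enough to test. The primary fibroblasts were cultured from enzymatically digested lungs of wild-type mice and purified before use, by a step the labels do not describe. They served as controls (3 samples) or were treated for 24 hours with 30 ng/ml of recombinant mouse DKK1 (3 samples). DKK1 is best known as a secreted inhibitor of Wnt signalling through the receptors LRP5 and LRP6. The labels name no genetic change shared by the groups and do not say whether the replicates of a group came from separate mice, so p-values measure the spread between these samples, which may be technical.

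The ER folds, glycosylates and oxidises secreted and membrane proteins. When unfolded proteins build up there, the membrane sensors IRE1 (Ern1), ATF6 and PERK (Eif2ak3) are activated. IRE1 splices Xbp1 mRNA, ATF6 is cleaved into a transcription factor, and PERK slows translation while favouring that of ATF4, which in turn raises CHOP (Ddit3). ATF6 and spliced XBP1 raise chaperones, disulfide enzymes and degradation factors. ATF4 raises amino acid synthesis and transport genes, and other kinases, such as the amino acid sensor GCN2, also lead to it. Fibroblasts secrete collagens, whose assembly depends on these enzymes, among them P4hb, which is also a subunit of collagen prolyl 4-hydroxylase. Gene-level counts do not show Xbp1 splicing, ATF6 cleavage or ATF4 translation, so the values below are total mRNA levels.

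Library totals ranged from 22565917 to 34727102 counts, with more counts for DKK1 than for control within every same-numbered pair. All 10 fibroblast markers on a list were detected, Lum at the lowest level, with a sum of 18479 to 20246 CPM in control and 17053 to 18983 CPM with DKK1; in the paired fit described next 2 of them rose and 6 fell. Replicate 3 of both groups stood apart: its summed epithelial markers were at 155 CPM in control and 153 CPM with DKK1, against 53.6 to 62.9 CPM in the other 4 libraries, and its summed leukocyte markers at 844 and 903 CPM, against 422 to 522 CPM. Endothelial markers summed to 73.5 and 74.3 CPM in replicate 3 and to 24.8 to 34.4 CPM elsewhere, and mesothelial markers to 60.1 and 61.7 CPM and to 25.7 to 31.0 CPM; 0 genes of the epithelial, endothelial and mesothelial lists were called in either fit. Of the 12 leukocyte markers, the T cell gene Cd3e and the neutrophil gene Ly6g were at 0 in all libraries. Of the 9 that could be tested, 4 rose (Marco, Itgam, Cd14, Adgre1) and 2 fell (Mrc1, Csf1r) with DKK1 in the paired fit. Mitochondrially encoded transcripts took 1.49% to 1.55% of control counts and 1.63% to 1.70% of DKK1 counts. The part of these differences in the results below was not tested.

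DKK1 was compared with control in 2 edgeR fits, one treating the 6 samples as unpaired and one with the replicate number as a block, because same-numbered samples deviated together from their group means. In the unpaired fit, 0 of the 34 tested members passed an adjusted p of 0.05, where 0.895% of all 14635 tested genes did (0.697% higher with DKK1 and 0.198% lower). Among the members 7 (20.6%) had an unadjusted p under 0.05, against 10.6% of all genes, and DESeq2 and limma-voom also called 0 members. With the block, 12 of the 34 members (35.3%) were called, 6 higher and 6 lower, against 9.42% of all genes (4.96% higher and 4.46% lower) and 12.9% (6.61% and 6.32%) of the 9223 genes whose mean was 10 CPM or more (counts scaled to a common library total), a level that 32 members reached. All these differences were small: the 12 log2 fold changes lay between -0.40 and 0.16. The median log2 fold change of the members was 0.037 in the paired fit, against -0.001 over all tested genes. Each library count was 124 or more for every tested member. With DESeq2 and the block, 2 members were called, both higher (P4hb and Pdia3), against 3.94% of genes (2.4% higher and 1.54% lower). The CPM of the groups did not overlap for 11 of the 34 members, 7 higher with DKK1 and 4 lower, against 16.5% of all tested genes (9.4% higher and 7.14% lower). Leaving out pair 1, pair 2 or pair 3 with the block left 9, 2 and 5 members called, of which 7, 2 and 5 were among the 12. Genes called in these fits made up 8.89%, 4.2% and 7.12% of those tested. Without pair 1 the called members were Dnajb11, Pdia3, Pdia4, P4hb, Atf6, Trib3 and Ppp1r15a of the 12, and Hsp90b1 and Chac1 besides. Without pair 2 they were Pdia3 and Herpud1, and without pair 3 they were P4hb, Asns, Herpud1, Ppp1r15a and Atf4. Pdia3 was not called without pair 3, nor Herpud1 without pair 1, so these fits shared no called member. After the libraries were also corrected for GC content and transcript length, 10 members were called (9 of the 12 and Hyou1), 5 in each direction, against 8.87% of genes (5.16% higher and 3.72% lower).

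**Figure D1:**
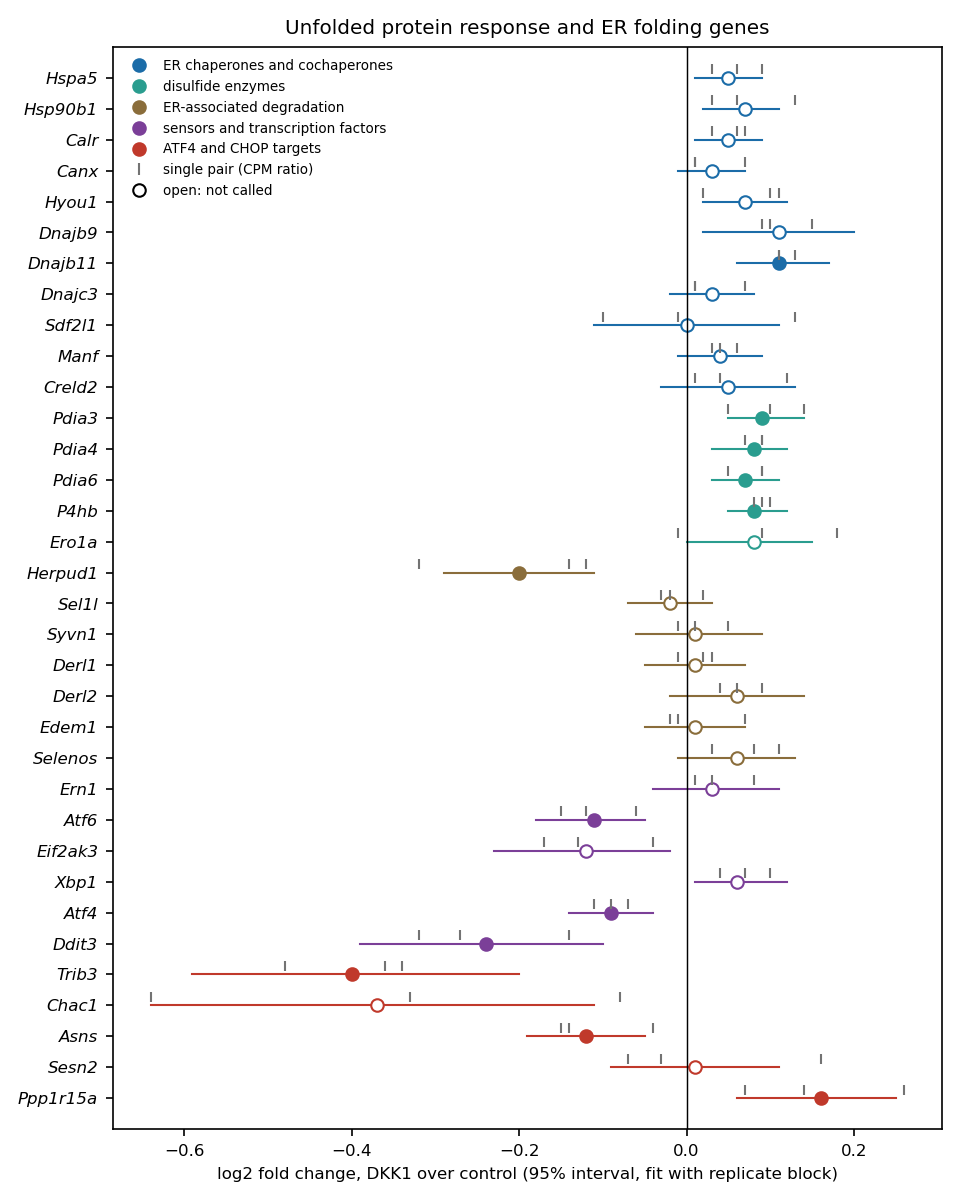
Log2 fold change of the 34 tested members, DKK1 over control, in the fit with the replicate block (circles, with 95% intervals; filled where the adjusted p was under 0.05) and the log2 ratio of CPM in each same-numbered pair (grey ticks). Chaperones and disulfide enzymes lie at or just above 0, up to 0.11, whereas Atf4, Ddit3, Trib3, Asns and Herpud1 lie below it, down to -0.40.

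Of the 11 chaperones and cochaperones, 0 were called without the block and 1, Dnajb11, rose with it (background 4.96% higher), although 10 of the 11 were higher with DKK1 in each of the 3 pairs, against 22.3% of all tested genes. Their median log2 fold change was 0.05, and 0.03 after the GC and length correction with the block. With the block, 6 had an unadjusted p under 0.05 in edgeR (54.5%, against 20.7% of all genes). After that correction 3 did (27.3%, against 20.5%). Of the chaperones and the 5 disulfide enzymes, 14 of 16 had an unpaired 95% interval within 0.2 of 0 on the log2 scale. Hspa5 (ENSMUSG00000026864), which encodes the main ER chaperone BiP and is the usual sentinel of ER stress, measured 937, 1019.9 and 954 CPM in control replicates 1 to 3 and 973, 1042 and 1017 CPM in DKK1 replicates 1 to 3. The groups overlapped, since control replicate 2 lay above DKK1 replicates 1 and 3 (log2 fold change 0.05, 95% interval -0.05 to 0.15, edgeR adjusted p = 0.741 unpaired and 0.0958 paired). The unpaired interval of Hspa5 thus reached no further than an 0.15 rise in log2 units. Dnajb9, a BiP cochaperone and IRE1-XBP1 target, measured 34.1, 30.9 and 34.3 CPM in control replicates 1 to 3 and 36.5, 34.2 and 36.4 CPM in DKK1 replicates 1 to 3. Its groups also overlapped, because control replicate 3 lay just above DKK1 replicate 2 (log2 fold change 0.10, 95% interval -0.02 to 0.23, edgeR adjusted p = 0.578 unpaired and 0.157 paired).

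Dnajb11 (ENSMUSG00000004460), a soluble cochaperone that hands unfolded proteins to BiP, measured 119, 124 and 120.1 CPM in control replicates 1 to 3 and 128, 134 and 131 CPM in DKK1 replicates 1 to 3. All DKK1 libraries lay above all control libraries (log2 fold change 0.11, SE 0.03, edgeR adjusted p = 0.0142 with the block and 0.288 without it). Hyou1, a large ER chaperone that acts as a nucleotide exchange factor for BiP, had 246, 264 and 252 CPM in control and 266, 267 and 269.7 CPM with DKK1. Its groups did not overlap, but it was not called with the block (edgeR adjusted p = 0.0995) and was called after the GC and length correction (adjusted p = 0.0223). The remaining chaperones were not called: the ER form of HSP90 (Hsp90b1), at 1235 ± 53.8 and 1297 ± 38.1 CPM (SD, n = 3 each), the lectin chaperones Calr and Canx, the PERK inhibitor Dnajc3, and Manf, Creld2 and Sdf2l1, with edgeR adjusted p-values of 0.0588 or more with the block. Sdf2l1, a partner of the BiP system, was the most even of them, at 29.7 ± 0.611 CPM in control and 29.8 ± 1.88 CPM with DKK1, and the sign of its log2 fold change turned with the scaling of the libraries. Expected counts were fractional in all 6 libraries for Hsp90b1 and in 4 for Manf, as RSEM gives where reads fit several loci.

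The upstream sequences of this group carry the ER stress response element (ERSE), the letters that ATF6 and NF-Y are known to bind, and are shown because it is the element through which the pathway is known to raise chaperones. The motif was searched on both strands, as CCAAT and CCACG with 9 bases between them, in RefSeq windows from 250 bases before to 50 after the gene start (GRCm38.p6). It was found in 6 of the 9 chaperone genes with a window and in 0.137% of the 27025 genes with one. The stretches run from 95 to 31 bases before the start for Hspa5 (chr2:34771995-34772059, plus strand) and from 220 to 81 bases before it for Hsp90b1 (chr10:86705525-86705664, minus strand). They are written 5′ to 3′ on the strand of the gene, with the ERSE in capitals.
Hspa5: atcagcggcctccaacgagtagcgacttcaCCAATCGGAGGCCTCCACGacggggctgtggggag
Hsp90b1: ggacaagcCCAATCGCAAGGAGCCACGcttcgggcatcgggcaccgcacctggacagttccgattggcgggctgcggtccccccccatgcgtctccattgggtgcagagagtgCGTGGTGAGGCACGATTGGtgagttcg
Hspa5 held 1 full match and Hsp90b1 held 2, the second in the reverse direction. Neither gene was called in either fit of all samples. Hsp90b1 was called, higher, with the block and without pair 1 (edgeR adjusted p = 0.00444), but not without pair 2 or pair 3 (0.135 and 0.363). Its log2 fold change with the block was 0.07, and 0.03 after the GC and length correction (edgeR adjusted p = 0.413).

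Of the 5 disulfide enzymes, 4 rose with the block (background 4.96% higher) and 0 were called without it (background 0.895%). Their log2 fold changes were 0.07 to 0.09, with a list median of 0.08, and of 0.06 after the GC and length correction with the block. P4hb (ENSMUSG00000025130), protein disulfide isomerase itself, measured 1216, 1235 and 1205 CPM in control replicates 1 to 3 and 1293, 1304 and 1289.5 CPM in DKK1 replicates 1 to 3. The groups were separate, and the spread within each was smaller than the 6.34% difference of their means (log2 fold change 0.08, SE 0.02, edgeR adjusted p = 0.00583 with the block and 0.31 without it). Pdia3, the isomerase that works with calreticulin and calnexin on glycoproteins, measured 836, 905 and 832 CPM in control replicates 1 to 3 and 893, 939 and 919 CPM in DKK1 replicates 1 to 3. Control replicate 2 overlapped the DKK1 libraries, while each pair rose, by log2 ratios of 0.10, 0.05 and 0.14 (log2 fold change 0.09, SE 0.02, edgeR adjusted p = 0.0106 with the block and 0.514 without it).

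Pdia4 (edgeR adjusted p = 0.0339 with the block) stood at 255, 262 and 246 CPM in control and at 267, 279 and 263 CPM with DKK1, where the groups were separate by a narrow margin. Pdia6, which also attenuates IRE1 signalling, stood at 437, 481 and 440.4 CPM in control and 464, 497 and 468 CPM with DKK1 (edgeR adjusted p = 0.0455 with the block). Its groups overlapped, because control replicate 2 lay above DKK1 replicates 1 and 3. After the GC and length correction, Pdia4 and Pdia6 were no longer called (adjusted p = 0.099 and 0.143). Ero1a, the oxidase that recharges these isomerases, was not called (log2 fold change 0.08, SE 0.03, edgeR adjusted p = 0.224 with the block and 0.707 without it), and fell slightly short of its control in pair 2 (log2 ratio -0.01). Pdia6 was the only gene of the 5 with an ERSE in its window, shown here from 115 to 66 bases before the start (chr12:17266474-17266523, plus strand) with the ERSE in capitals.
Pdia6: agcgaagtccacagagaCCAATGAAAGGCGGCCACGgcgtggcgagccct

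Among the 8 genes of ER-associated degradation, which returns misfolded proteins to the cytosol for destruction, 7 were tested, of which 1, Herpud1, fell with the block (background 4.46% lower) and 0 were called without it. Herpud1 (ENSMUSG00000031770), a ubiquitin-like scaffold of the retrotranslocation complex, measured 57.6, 55.5 and 54.8 CPM in control replicates 1 to 3 and 46.1, 51.0 and 49.6 CPM in DKK1 replicates 1 to 3. All DKK1 libraries lay below all control libraries, with the largest gap in pair 1 (log2 fold change -0.20, SE 0.04, edgeR adjusted p = 0.00939 with the block and 0.142 without it). Leaving out a pair kept the call in 2 of 3 fits. The others were not called in either fit: the ubiquitin ligase pair Sel1l and Syvn1, the channel proteins Derl1 and Derl2, the mannose-trimming factor Edem1 and the VCP adaptor Selenos had log2 fold changes between -0.02 and 0.06 and edgeR adjusted p-values of 0.297 or more with the block. Derl2 measured 48.8, 51.2 and 50.6 CPM in control and 52.0, 52.8 and 52.9 CPM with DKK1, and Selenos 71.4, 73.4 and 70.0 CPM and 76.8, 74.9 and 73.8 CPM. Both were higher with DKK1 in each pair without overlap, so that 3 of the 7 tested genes had separate groups (42.9%, against 16.5% of all genes). Derl2 had fractional expected counts in all 6 libraries. Derl1 was nearly level, at 122 ± 1.78 CPM in control and 124 ± 0.244 CPM with DKK1 (SD, n = 3 each). Derl3, the derlin typical of secretory cells such as plasma cells, held 2 to 8 counts per library (0.0867 to 0.283 CPM) and was not tested; 3 counts amount to 0.0864 to 0.133 CPM, depending on the library.

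Herpud1 is shown because its window held elements of both branches: ERSE-II, searched as ATTGG and CCACG with 1 base between them, and the C/EBP-ATF element that ATF4 is known to bind, searched as TGATGNAA. In the window from 120 to 36 bases before the start (chr8:94386309-94386393, plus strand) the first capitals are the C/EBP-ATF element in reverse and the second ERSE-II.
Herpud1: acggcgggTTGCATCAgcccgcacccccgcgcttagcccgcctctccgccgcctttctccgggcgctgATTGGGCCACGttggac
ERSE-II was present in 0.0444% of all genes with a window and, among the members, in Herpud1 and Dnajb11, which moved in opposite directions.

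Of the 6 sensors and transcription factors, 3 fell with the block (background 4.46% lower), 0 rose and 0 were called without it. Ern1, the IRE1 gene, measured 56.8, 51.9 and 54.5 CPM in control replicates 1 to 3 and 59.9, 52.2 and 55.7 CPM in DKK1 replicates 1 to 3. Each pair was higher with DKK1, and the groups overlapped in part (log2 fold change 0.04, 95% interval -0.10 to 0.17, edgeR adjusted p = 0.899 unpaired and 0.661 paired). Xbp1 measured 131, 134 and 129 CPM in control replicates 1 to 3 and 141, 138 and 135 CPM in DKK1 replicates 1 to 3. The DKK1 libraries lay above the control libraries by a narrow margin, and the gene was not called (log2 fold change 0.06, 95% interval -0.02 to 0.15, edgeR adjusted p = 0.611 unpaired and 0.179 paired).

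Atf6 (ENSMUSG00000026663) measured 93.6, 89.4 and 90.6 CPM in control replicates 1 to 3 and 90.1, 80.6 and 83.4 CPM in DKK1 replicates 1 to 3. The groups overlapped in DKK1 replicate 1, while each pair fell, by log2 ratios of -0.06, -0.15 and -0.12 (log2 fold change -0.11, SE 0.03, edgeR adjusted p = 0.037 with the block and 0.46 without it). It lost the call after the GC and length correction (adjusted p = 0.0979). Eif2ak3, the PERK gene, measured 28.1, 31.1 and 27.2 CPM in control replicates 1 to 3 and 25.6, 27.6 and 26.4 CPM in DKK1 replicates 1 to 3. It was lower in each pair but was not called (log2 fold change -0.12, 95% interval -0.27 to 0.03, edgeR adjusted p = 0.583 unpaired and 0.137 paired), and its expected counts were not whole in 5 libraries.

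Atf4 (ENSMUSG00000042406) and Ddit3, its target gene for the transcription factor CHOP, both fell with DKK1 in the paired fit. Atf4 measured 205, 194 and 209 CPM in control replicates 1 to 3 and 189.8, 182 and 199 CPM in DKK1 replicates 1 to 3. The groups overlapped, and each pair fell by a similar amount, with log2 ratios of -0.11, -0.09 and -0.07 (log2 fold change -0.09, SE 0.02, edgeR adjusted p = 0.0197 with the block and 0.505 without it). Ddit3 (ENSMUSG00000025408) measured 17.1, 15 and 17.7 CPM in control replicates 1 to 3 and 13.7, 13.7 and 14.7 CPM in DKK1 replicates 1 to 3. All DKK1 libraries lay below all control libraries, and DKK1 replicates 1 and 2 were level (log2 fold change -0.24, SE 0.07, edgeR adjusted p = 0.0375 with the block and 0.272 without it). With any 1 pair left out Ddit3 was not called (edgeR adjusted p = 0.0812 to 0.170 with the block). It overlaps Mars, which is transcribed from the other strand. Whether counting used strand is not given in the sources used here, so reads from a shared stretch could have been counted to either gene; the expected counts of Ddit3 were whole in 5 of 6 libraries. In all, 6 of the 12 called members overlap a gene on the opposite strand (Ddit3, Dnajb11, Pdia3, Pdia6, Herpud1 and Ppp1r15a).

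The 5 targets of ATF4 and CHOP went both ways. Among them were the largest differences of the tested members, those of Trib3 and Chac1, both lower with DKK1. With the block 2 fell, Trib3 and Asns (background 4.46%), 1 rose (background 4.96%) and 2 were not called. Without it 0 of the 5 were called (background 0.895%). Trib3 (ENSMUSG00000032715), a pseudokinase induced by ATF4 and CHOP, measured 8.20, 8.84 and 10.1 CPM in control replicates 1 to 3 and 5.86, 6.97 and 7.85 CPM in DKK1 replicates 1 to 3. The groups did not overlap, and the means differed by -23.7% (log2 fold change -0.40, SE 0.09, edgeR adjusted p = 0.0133 with the block and 0.281 without it). Asns, which makes asparagine, measured 83.2, 94.8 and 92.8 CPM in control replicates 1 to 3 and 75.4, 85.3 and 90.6 CPM in DKK1 replicates 1 to 3. The groups overlapped because replicates 2 and 3 were higher than replicate 1 in both, and each pair fell, by log2 ratios of -0.14, -0.15 and -0.04 (log2 fold change -0.12, SE 0.03, edgeR adjusted p = 0.0418 with the block and 0.665 without it).

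Chac1, which degrades glutathione, was lower by a similar fold but less evenly. It measured 5.63, 7.43 and 6.75 CPM in control replicates 1 to 3 and 5.34, 4.75 and 5.38 CPM in DKK1 replicates 1 to 3. The groups did not overlap, but the pair ratios spread from -0.64 to -0.08 and the gene was not called (log2 fold change -0.37, SE 0.12, edgeR adjusted p = 0.0817 with the block and 0.34 without it). Without pair 1, whose ratio was the -0.08, it was called with the block (edgeR adjusted p = 0.00559). Sesn2, a stress-induced regulator of mTORC1, stood at 42.2 ± 4.28 and 42.8 ± 1.20 CPM (SD, n = 3 each), with a lower value in pairs 1 and 2 and a higher one in pair 3. Ppp1r15a (ENSMUSG00000040435), known as GADD34, the phosphatase subunit that reverses the translation block, went the other way. It measured 44.1, 37.5 and 46.2 CPM in control replicates 1 to 3 and 48.6, 45.1 and 48.7 CPM in DKK1 replicates 1 to 3. Control replicate 3 overlapped DKK1 replicate 2, and each pair rose, by log2 ratios of 0.14, 0.26 and 0.07 (log2 fold change 0.16, SE 0.04, edgeR adjusted p = 0.0364 with the block and 0.536 without it).

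The C/EBP-ATF element lay in the windows of 3 of these 5 genes (Trib3, Chac1 and Asns), against 4.51% of all genes with a window. Chac1 is shown from 210 to 171 bases before the start (chr2:119351032-119351071, plus strand) and Asns from 60 bases before it to the base before the start (chr6:7693210-7693269, minus strand), with the element in capitals, reversed in Chac1.
Chac1: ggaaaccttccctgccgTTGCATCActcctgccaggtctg
Asns: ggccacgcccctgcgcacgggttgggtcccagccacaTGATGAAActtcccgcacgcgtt
The match of Trib3 lies after the gene start and is not printed. A match is a description of the letters and no evidence that a factor was bound in these cells.

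**Figure D2:**
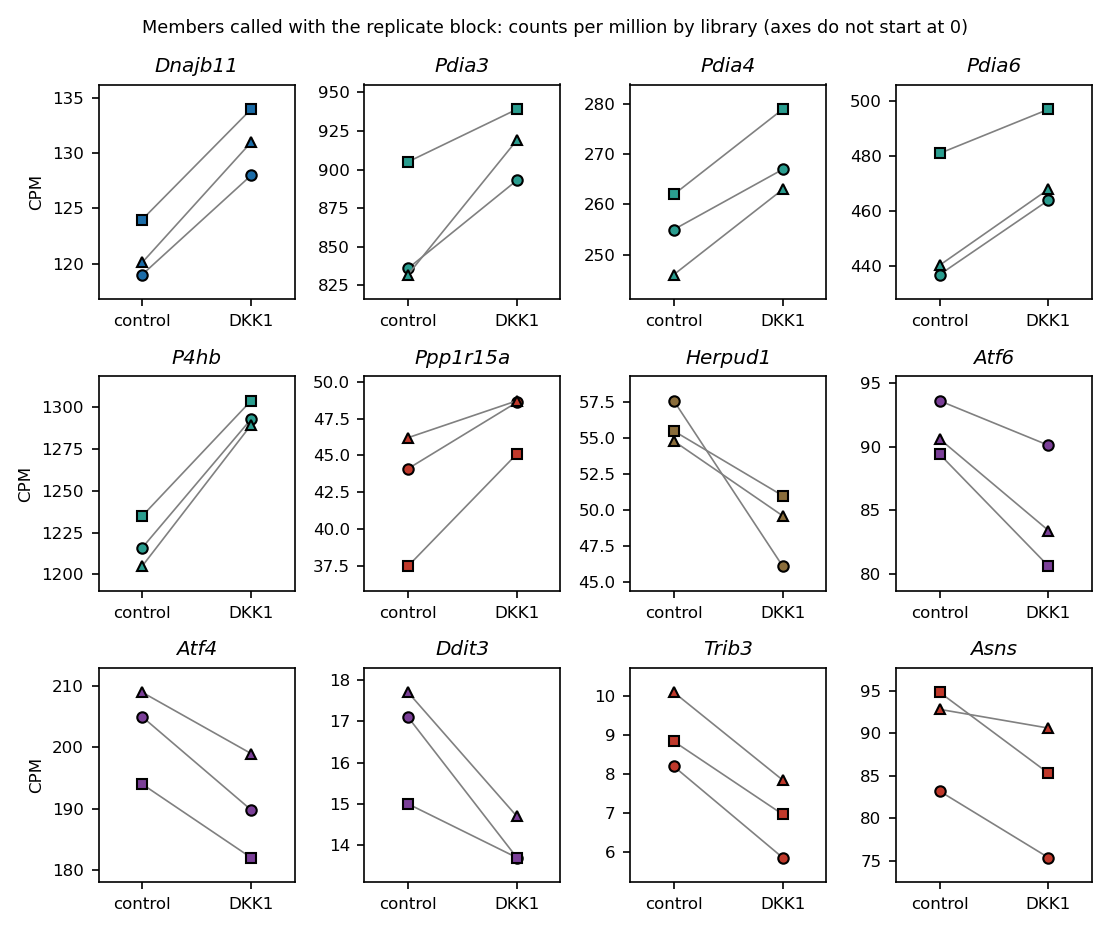
CPM in each library, on axes that do not start at 0, for the 12 members called with the replicate block, with a line joining samples of the same replicate number (circle, 1; square, 2; triangle, 3). The first 6 panels rise and the last 6 fall in each of the 3 pairs, while the groups overlap in Pdia3, Pdia6, Ppp1r15a, Atf6, Atf4 and Asns.

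Per transcript length, 7 chaperones and disulfide enzymes had higher control levels than any sensor or transcription factor, while Dnajb9, at 13.4 ± 0.776 CPM per kilobase, lay close to Atf6. Dividing control CPM by the length of the transcript with the longest coding sequence, Calr had the highest level of the members, at 558 ± 18.4 CPM per kilobase (SD, n = 3), then Hsp90b1 at 437 ± 19.1, P4hb at 426 ± 5.37, Pdia3 at 309.6 ± 14.8 and Hspa5 at 264 ± 12 CPM per kilobase. Hsp90b1 and P4hb did not differ beyond their spread. Atf4 was the most abundant of the sensors and factors, at 117 ± 4.61 CPM per kilobase, against 61.8 ± 1.28 for Xbp1, 18.7 ± 1.59 for Ddit3, 12.6 ± 0.304 for Atf6, 7.83 ± 0.354 for Ern1 and 6.38 ± 0.444 for Eif2ak3. Among the tested members Chac1 and Trib3 were lowest, at 4.03 ± 0.556 and 4.46 ± 0.468 CPM per kilobase, again within their spread of each other. Together the members took 0.916%, 0.962% and 0.917% of the counts in control replicates 1 to 3 and 0.951%, 0.985% and 0.970% with DKK1. This share was higher with DKK1 in each pair, and the groups overlapped. In such bulk samples a change in the number of cells of a type and a change in RNA per cell cannot be told apart.

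**Figure D3:**
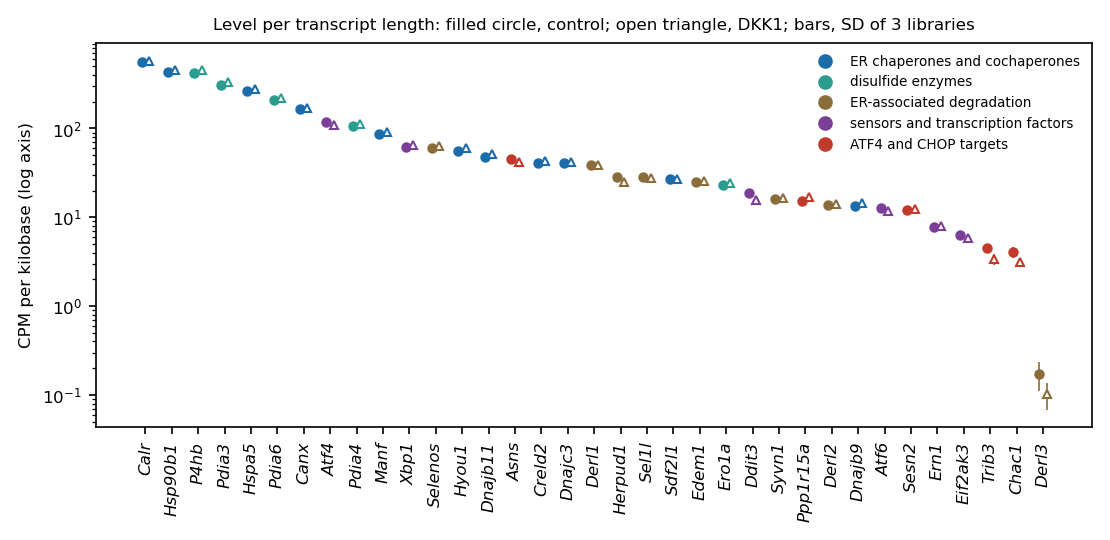
Mean CPM per kilobase of transcript for the 35 members on a log axis, in order of the control level (filled circles, control; open triangles, DKK1; bars, SD of 3 libraries, mostly smaller than the symbols). The order runs from Calr at 558 to Chac1 at 4.03 CPM per kilobase in control, with Derl3 far below at 0.172.

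The rest of the pathway was read from 5 further lists of 169 genes, 166 of them tested. Like the members, these lists were chosen with earlier results of these data known. Without the block 2 genes were called, 1.20% against 0.895% of all genes: Atf5, lower, and Slc7a11, higher. With the block 33 were called (19.9% against 9.42%), 8 higher and 25 lower. Of these 25, 22 stood on a single list, named for ATF4-dependent amino acid genes. Of 40 other ER folding enzymes 1 rose (Tmx3, a transmembrane disulfide isomerase, log2 fold change 0.14, SE 0.03, edgeR adjusted p = 0.00818 with the block and 0.136 without it) and 1 fell (Qsox1, a sulfhydryl oxidase, edgeR adjusted p = 0.037 with the block). Qsox1 was not called after the GC and length correction (adjusted p = 0.18) or with any 1 pair left out; with that correction 2 genes of the list were called higher and 0 lower. The share called was 5.00% (2.50% in each direction), below the 9.42% of all genes (4.96% higher and 4.46% lower). The median log2 fold change of these enzymes was 0.03 with the block, and 28 of the 40 were positive (70.0%, against 49.8% of all genes). After the GC and length correction with the block the median was 0.01 and 25 were positive (62.5%, against 49.7%). Of 31 further genes of ER-associated degradation and ER-phagy, 0 were called in either edgeR fit, where 0 had an unadjusted p under 0.05 without the block (background 10.6%) and 1 did with it (3.23%, against 20.7%). Their log2 fold changes lay between -0.06 and 0.17 without the block.

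Of 32 translocation and N-glycosylation genes, 2 rose and 1 fell with the block, 9.38% against 9.42% of all tested genes, so the share called was near the background. The 2 that rose are subunits of the signal peptidase, which trims proteins as they enter the ER. Spcs2 measured 101, 102 and 96.8 CPM in control replicates 1 to 3 and 111, 115 and 113 CPM in DKK1 replicates 1 to 3, without overlap (log2 fold change 0.17, SE 0.03, edgeR adjusted p = 0.00156 with the block and 0.0921 without it). Spcs3 rose from 120.0 ± 7.98 to 135 ± 8.98 CPM (SD, n = 3 each; edgeR adjusted p = 0.00158 with the block). Both kept their call with each pair left out. Kdelr3, a receptor that returns escaped chaperones to the ER and a known target of the pathway, fell from 96.0 ± 2.61 to 86.6 ± 1.24 CPM (edgeR adjusted p = 0.00404 with the block), and was not called without pair 2 (0.0611).

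Among 21 tested genes of a second list of sensors and factors, 2 rose (9.52%, against 4.96% of all genes) and 1 fell (4.76%, against 4.46%) with the block. Atf5 (ENSMUSG00000038539), a transcription factor whose translation is favoured in the same way as that of ATF4, measured 231, 213 and 212 CPM in control replicates 1 to 3 and 184, 184 and 189.8 CPM in DKK1 replicates 1 to 3. The groups were well separated, and Atf5 fell in both fits (log2 fold change -0.24, SE 0.03, edgeR adjusted p = 0.000128 with the block and 0.0417 without it). It kept the call with each pair left out in the paired fit, whereas the 6 unpaired fits without 1 library did not call it (edgeR adjusted p = 0.0519 to 0.179), nor did those after the GC and length correction (0.0524) or without replicate 3 of both groups (0.0582). Its expected counts were not whole in 4 libraries and it overlaps opposite-strand genes. Wfs1, an ER membrane protein that restrains ATF6, rose from 68.7 ± 3.79 to 79.3 ± 4.10 CPM (log2 fold change 0.20, SE 0.03, edgeR adjusted p = 0.000858 with the block and 0.183 without it). Of the genes called in these lists with the block and named here, Tmx3, Kdelr3, Casp12 and Slc38a2 kept the call in 2 of the 3 fits without 1 pair. Casp12, an ER-associated caspase, measured 11.9, 16.6 and 14 CPM in control replicates 1 to 3 and 15.2, 22.5 and 16 CPM in DKK1 replicates 1 to 3, a rise in each pair on overlapping groups (log2 fold change 0.33, SE 0.07, edgeR adjusted p = 0.00625 with the block and 0.564 without it).

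The list of ATF4-dependent amino acid genes held the most calls, but it was chosen with earlier results of these data known. Its name is taken from known regulation, and dependence on ATF4 was not tested in these cells. It also holds genes outside amino acid metabolism, among them Vldlr, Ddit4 and Nupr1. Of its 42 tested genes 22 fell and 3 rose with the block (background 4.46% lower and 4.96% higher), and 27 were lower in each of the 3 pairs, against 19.5% of all tested genes. The median log2 fold change of the list was -0.10. Without the block 1 was called, Slc7a11 (2.38%, against 0.895% of all genes), and 22 had an unadjusted p under 0.05 (52.4%, against 10.6%). Of the 25 called with the block, 13 were called with each pair left out. The share of all genes called in each of these fits was not counted. Taken singly, the fits without pair 1, 2 and 3 called 8.89%, 4.2% and 7.12% of all tested genes. DESeq2 with the block called 10 genes of the list, 8 of them lower (background 3.94%, and 1.54% lower). The list holds 12 aminoacyl-tRNA synthetase genes, which charge tRNAs with amino acids, and 6 of them fell.

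Aldh1l2, a mitochondrial enzyme of folate metabolism, measured 66.3, 74.5 and 61.8 CPM in control replicates 1 to 3 and 50.9, 58.3 and 49.6 CPM in DKK1 replicates 1 to 3. The groups did not overlap (log2 fold change -0.36, SE 0.03, edgeR adjusted p = 1.61e-05 with the block and 0.135 without it). Phgdh, the first enzyme of serine synthesis, measured 241, 253 and 246 CPM in control replicates 1 to 3 and 195, 220.1 and 223 CPM in DKK1 replicates 1 to 3. DKK1 replicate 1 was the lowest and no DKK1 library reached a control (log2 fold change -0.22, SE 0.03, edgeR adjusted p = 0.000174 with the block and 0.133 without it), although fractional expected counts in all 6 libraries mark its reads as partly shared. Vldlr, a lipoprotein receptor that ATF4 is known to induce, fell from 63.5 ± 5.37 to 52.5 ± 4.97 CPM (edgeR adjusted p = 0.000128 with the block).

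The 3 genes of the list that rose were Slc7a11, Ddit4 and Slc38a2, of which the last 2 were named after their values were seen. Slc7a11 (ENSMUSG00000027737), the cystine importer, which is also a known target of NRF2, measured 10.1, 10.4 and 13.5 CPM in control replicates 1 to 3 and 19.7, 18.6 and 28.1 CPM in DKK1 replicates 1 to 3. Every DKK1 library exceeded every control, and DKK1 replicate 3 was the highest (log2 fold change 0.95, SE 0.07, edgeR adjusted p = 9.75e-07 with the block and 0.0492 without it). It kept the call with each pair left out in the paired fit and missed it without the block when libraries were scaled by their totals (edgeR adjusted p = 0.0517), after the GC and length correction (0.0536), with limma-voom (0.0642) or when control replicate 1 or 2 or DKK1 replicate 1 or 2 was left out (0.0679 to 0.194). It too had fractional expected counts in all 6 libraries, and it overlaps processed pseudogenes, so its level is uncertain. Ddit4, a stress-induced inhibitor of mTORC1, rose from 48.5 ± 3.55 to 66.2 ± 11.2 CPM (edgeR adjusted p = 0.00017 with the block). Slc38a2, a transporter of neutral amino acids, rose from 467 ± 12.9 to 501 ± 9.68 CPM (edgeR adjusted p = 0.0146 with the block).

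The C/EBP-ATF element was found in 13 of the 33 list genes with a window, 39.4% against 4.51% of all genes. It lay in 8 of the 17 that fell, 1 of the 3 that rose and 3 of the 12 not called, and in Fgf21, which was not tested. Nupr1 and Slc7a11 are shown as a gene that fell and one that rose with the same letters upstream, Nupr1 from 125 to 91 bases before the start (chr7:126625561-126625595, minus strand) and Slc7a11 from 80 to 31 bases before it (chr3:50443644-50443693, minus strand).
Nupr1: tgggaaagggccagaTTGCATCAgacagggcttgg
Slc7a11: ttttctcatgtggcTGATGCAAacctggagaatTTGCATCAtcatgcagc
Nupr1, a stress-induced chromatin protein named after its values were seen, measured 51.0, 49.1 and 52.4 CPM in control replicates 1 to 3 and 44.1, 40.8 and 43.5 CPM in DKK1 replicates 1 to 3. Its groups did not overlap, and it fell in the paired fit but was not called in the unpaired one, by a narrow margin (log2 fold change -0.25, SE 0.04, edgeR adjusted p = 0.000592 with the block and 0.05 without it). Slc7a11 held the element once in each direction.

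**Figure D4:**
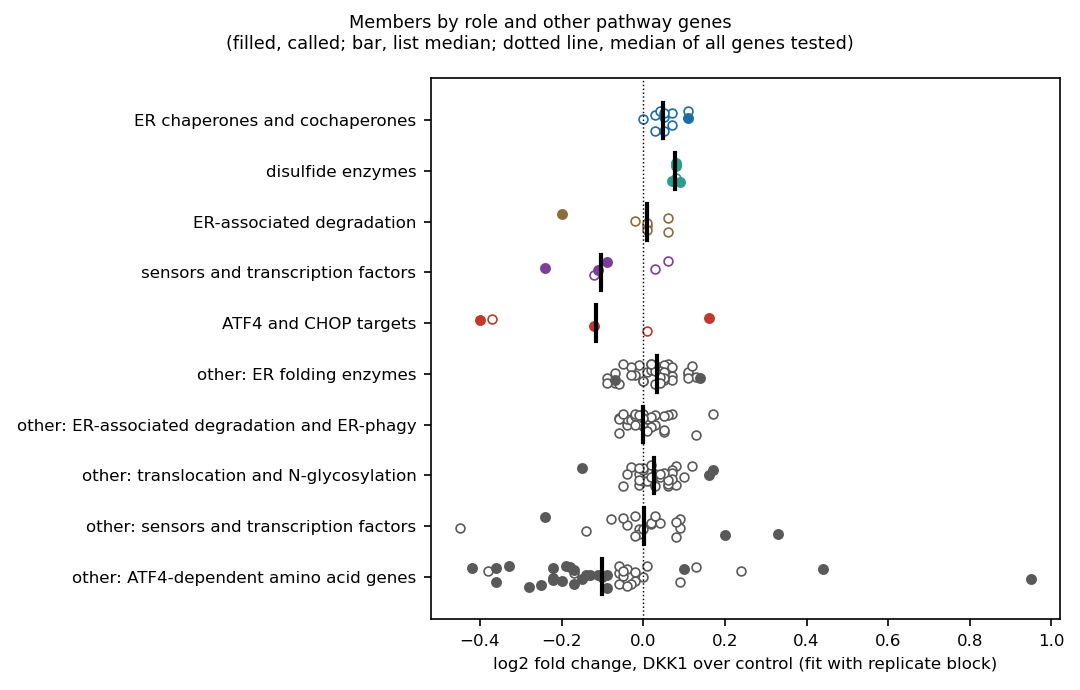
Log2 fold change in the fit with the replicate block for the members by role (coloured) and the 5 further lists (grey), 1 point per gene, filled where called, with the list median as a black bar. The medians run from 0.078 for the disulfide enzymes to -0.117 for the ATF4 and CHOP targets, and the amino acid genes centre on -0.100 with Slc7a11 alone at 0.95.

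Over all members, the 31 with a promoter window held the ERSE in 9 (29.0%, against 0.137% of all genes), ERSE-II in 2 (6.45%, against 0.0444%) and the C/EBP-ATF element in 4 (12.9%, against 4.51%). The letters CCACG, which are part of both ERSE forms, were present in 83.9% against 35.5% of all genes. In the further lists the share was 50% to 69.7%. It was highest in the amino acid list, which held 0 matches of ERSE and 0 of ERSE-II. The element TGACGTGG, named UPRE, was not found in these windows, where 0.714% of all genes hold it. The ERSE lay in 1 of the 6 members that rose with the block, 0 of the 5 that fell and had a window, and 7 of the 19 that were tested and not called; Derl3, which was not tested, also held it. The C/EBP-ATF element lay in 0 of 6, 3 of 5 and 1 of 19 of the same groups.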

How the data were processed

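RNA from 3 control and 3 DKK1-treated fibroblast samples was sequenced. The authors deposited RSEM expected counts per gene, not scaled, with 9.62% to 10.6% of values not whole; the submitters' processing notes name STAR, RSEM, edgeR 4.2.1 and the build GRCm38 (mm10), without roles or order. The annotation release and strandedness are not given in the sources used here. Symbols came from a reference table (98.8% of 45706 identifiers matched), lengths and overlaps from GENCODE M21, and promoter windows from RefSeq (GRCm38.p6).

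The expected counts, rounded, went into edgeR 4.0.16 under R 4.3.3, with filterByExpr (minimum count 10, leaving 14635 genes) and TMM factors. Tests used glmQLFit and glmQLFTest, two-sided, with Benjamini-Hochberg adjustment over all tested genes. Genes were called at an adjusted p under 0.05. A check on simulated data planted larger folds than most called members had, and shifts shared by same-numbered samples. It therefore does not test the pairing or folds as small as theirs. SE is the absolute log2 fold change over the square root of F. CPM is scaled to library totals. Same-numbered samples correlated in their deviations from the group means (r = 0.274, 0.230 and 0.405 across genes), so the replicate number from the sample titles was taken to pair them; the labels do not say what it stands for. With the block the biological coefficient of variation was 2.30%, against 6.99% without it. Alternatives used DESeq2 1.42.0, limma 3.58.1, other scalings and filters, a GC and length correction, and left-out samples.

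The members and lists were chosen with earlier results of these data known. All members were named. Of each further list, up to 3 genes per direction with the smallest adjusted p were named among those called without the block or, where there were none, with it; any other gene of these lists was named after its values were seen. Intervals and count floors cover counting and replicate error of reads without molecular identifiers, which are not independent molecules.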

Additional observations from a re-analysis of the deposited data

How the results depend on the processing

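The count of genes called was 131 in the unpaired fit, 1379 with the replicate block, 1297 after a GC and length correction besides, 329 without a low-count filter, 289 with DESeq2 and 558 with DESeq2 and the block, and 36 to 139 with 1 library left out. For the members these counts were 0 unpaired, 12 with the replicate block, 10 after that correction too, 2 with DESeq2 and the block, and 9, 2 and 5 with the block and pair 1, 2 or 3 left out, where the count over all genes was 1312, 612 and 1059 without pair 1, 2 and 3. Every other setting run for the members gave 0, among them DESeq2 or limma-voom without the block and leaving out replicate 3 of both groups.

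For the 5 further lists the count was 2 unpaired, 33 with the block, 32 after that correction too, 1 with library totals, limma-voom or the correction alone, 9 without a filter, 8 with DESeq2, 14 with DESeq2 and the block, 0 to 3 with 1 library left out and 28, 18 and 29 with the block and pair 1, 2 or 3 left out. For the amino acid list it was 1 unpaired, 25 with the block, 23 after that correction too, 2 with DESeq2 size factors, with at least 10 counts in every library or without replicate 3 of both groups, 0 with library totals or limma-voom, 8 without a filter, 7 with DESeq2, 10 with DESeq2 and the block, 0 to 3 with 1 library left out and 20, 14 and 22 with the block and pair 1, 2 or 3 left out.

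The log2 fold changes of 6 members changed sign. Sdf2l1 was 0.00489 with library totals, 0.00263 without a filter, 0.00172 after the correction and -0.0393 to 0.0439 without 1 library (0.00596 and 0.0130 among them), and 0.00671 and 0.0469 with the block and pair 2 or 1 left out. Sel1l was 0.0111 after the correction, 0.0106 when the block was added, and -0.0517 to 0.0196 without 1 library. Leaving out 1 library or pair gave -0.0119, -0.0130 and -0.00161 for Syvn1 (up to 0.0484), -0.0136, -0.00332 and -0.0219 for Edem1, -0.0185 for Ern1 (up to 0.0811) and -0.0735, -0.0132 and -0.0504 for Sesn2 (up to 0.0633); without replicate 3 of both groups Edem1 was -0.0222 and Sesn2 -0.0513. The cause of these changes was not tested. The other values were those of single genes and of the member median, which has no threshold and was counted with those that kept theirs. Of them, 856 kept direction and side of the threshold, 93 passed it and 15 no longer did. The fits with DESeq2 and the block, with 1 pair left out and without replicate 3 were chosen after seeing the data. Each group held 3 samples, and leaving expected counts unrounded gave 131 genes and 0 members called, as rounding did.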
